A study of Mus musculus with 32 samples.

Results

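The members of a group of 10 interleukin signalling genes were followed in mouse bone marrow-derived macrophages (BMDMs) exposed to lipopolysaccharide (LPS), a component of the bacterial outer membrane. The members were 9 receptor chains (Il4ra, Il13ra1, Il15ra, Il17ra, Il21r, Il2rg, Il2ra, Il7r and Il12rb1) and 1 cytokine (Il15). They were chosen by name, with earlier results of these data known, and are 10 of the 25067 named genes in the count table. All 10 passed the filter on low values and stood among the 11279 genes tested. RNA was sequenced from 32 libraries in 8 groups of 4, which cross 2 genotypes with 0, 1, 5 and 18 h of LPS at 100 ng/ml. Marrow came from male C57Bl6/J mice aged 6 to 12 weeks, and all cells were grown for 7 days in medium with 15% L929-conditioned medium, the source of the macrophage growth factor. BMDM-Nur77-KO cells lacked the nuclear receptor Nur77, encoded by Nr4a1, in every tissue: a loxP-flanked allele had been recombined with CMV-Cre and the Cre then bred out, although the genotype label itself reads "cre". BMDM-WT cells came from littermates. The comparison of the genotypes asks how the macrophage response to LPS differs without Nur77.

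Interleukin receptors of this kind are built from shared parts. Il2rg encodes the common gamma chain, which joins Il4ra to bind IL-4, Il7r to bind IL-7, Il21r to bind IL-21, and the IL-2 and IL-15 receptors together with the beta chain Il2rb, while Il13ra1 pairs with Il4ra to bind IL-13. Il15ra holds IL-15 at the cell surface and presents it to neighbouring lymphocytes, so that macrophages are known as a source of the IL-15 signal for natural killer and memory T cells. Il2ra is the alpha chain that raises the affinity for IL-2, Il17ra is the shared chain of the IL-17 receptors, and Il12rb1 is the chain shared by the IL-12 and IL-23 receptors. All of these receptors signal through JAK kinases and STAT factors except that for IL-17, which uses the adaptor encoded by Traf3ip2.

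The libraries held 8742362 to 15780926 assigned reads, with a median of 11847140. Nr4a1 was lower in the BMDM-Nur77-KO libraries at 0 h, with 4.44 to 7.00 CPM (read counts scaled to library size) against 15.5 to 25.7 CPM in BMDM-WT, and at 1 h, with 146 to 243 against 358 to 485 CPM. At 5 and 18 h it held at most 9 reads in any library of either genotype. Reads in the gene therefore remained under the knockout label, and the table does not separate the deleted exons from the rest. The summed level of 8 macrophage markers lay between 11065 and 18876 CPM in every library. Of 8 T cell markers, summing to 12.4 to 49.8 CPM, Cd3d, Cd3e and Cd3g never passed 0.490 CPM. Most of that sum was Cd4 (8.74 to 20.8 CPM) and Lck (0.150 to 38.4 CPM). LPS raised Lck at 5 h in both genotypes (log2 5.86 in BMDM-WT and 6.36 in BMDM-Nur77-KO). The 7 NK cell markers together reached at most 1.48 CPM, 6 B cell markers 4.76 CPM and 6 mast cell markers 5.32 CPM, with Fcer1a, Mcpt4 and Tpsb2 at 0 throughout. A list of 7 dendritic cell markers moved with genotype: its sum was 156 to 202 CPM in BMDM-WT and 426 to 467 CPM in BMDM-Nur77-KO at 0 h, and 39.5 to 45.1 against 116 to 128 CPM at 18 h. Most of that sum was Itgax, an integrin chain that macrophages also express, while Flt3 and Zbtb46 stayed at or below 1.13 CPM. Their part in the results was not tested, and in bulk samples a different share of cells and a different amount of RNA per cell cannot be told apart.

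Among the 32 libraries, 2 stood apart from the rest of their groups. Replicate 1 of BMDM-Nur77-KO at 5 h had a median absolute deviation of 0.48 (log2 CPM) from the other libraries of its group, and replicate 4 of BMDM-Nur77-KO at 18 h one of 0.35, against 0.08 to 0.29 in the remaining 30 libraries. The called genotype differences and interactions that rest on these libraries are given with and without them in the account of each gene. The number of animals behind the replicates is not given, so the p-values measure the spread between these samples, which may be technical.

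The common gamma chain was the most abundant receptor chain per transcript length in every group. In resting BMDM-WT cells the mean level of Il2rg was 76.1 ± 6.09 RPKM (reads scaled by transcript length and library size, SD, n = 4), followed by Il7r at 46.0 ± 4.05 RPKM, Il21r at 21.3 ± 0.966 RPKM and Il4ra at 13.7 ± 1.49 RPKM. Il15 followed at 6.67 ± 1.02 RPKM. Il13ra1 at 2.45 ± 0.521 RPKM and Il17ra at 2.35 ± 0.225 RPKM were neighbours that did not differ beyond their spread. The lowest levels were those of Il15ra (1.39 ± 0.248 RPKM), Il12rb1 (0.416 ± 0.0483 RPKM) and Il2ra (0.0272 ± 0.0165 RPKM), the last with 1 to 3 reads per library. After 5 h of LPS the order was different, with Il15 first at 297 ± 14.1 RPKM, Il2rg at 218 ± 2.89 RPKM, Il4ra at 123 ± 6.52 RPKM and Il15ra at 105 ± 6.21 RPKM in BMDM-WT. At that time Il7r (20.1 ± 1.78 RPKM) and Il17ra (19.2 ± 0.616 RPKM) did not differ beyond their spread. At 18 h in BMDM-WT, Il2rg was again first at 298 ± 15.3 RPKM, Il15 stood at 68.8 ± 3.23 RPKM, and Il4ra, Il15ra and Il7r lay within their spread of each other at 52.5 ± 5.37, 52.1 ± 5.53 and 47.9 ± 15.0 RPKM. In BMDM-Nur77-KO at 18 h, Il15 (125 ± 12.8 RPKM) and Il15ra (96.5 ± 6.17 RPKM) ranked next after Il2rg, above Il7r at 70.7 ± 15.4 RPKM and Il4ra at 42.7 ± 5.94 RPKM.

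**Figure D1:**
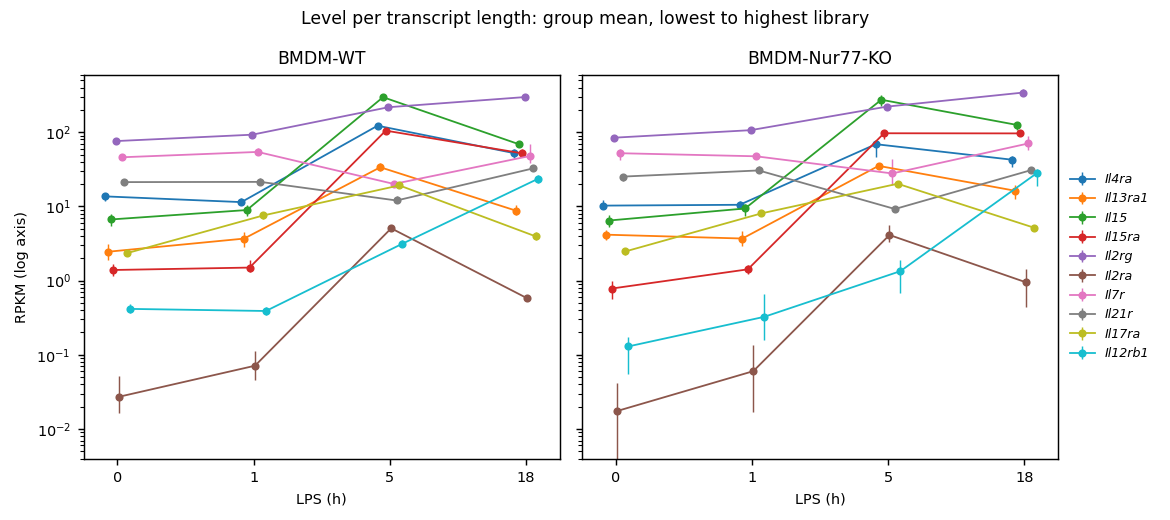
Level per transcript length (RPKM, log axis) of the 10 genes over 0, 1, 5 and 18 h of LPS in BMDM-WT (left) and BMDM-Nur77-KO (right); points are means of 4 libraries and bars run from the lowest to the highest library. Il2rg is highest at 0, 1 and 18 h and Il15 at 5 h in both genotypes, while Il2ra is lowest at 0, 1 and 18 h.

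LPS changed nearly all of these genes at 5 h. A response counted as called when its adjusted p was under 0.05 and its log2 change over 1 in size. At 1 h in BMDM-WT, Il17ra was the 1 member called, against 5.19% of all genes tested (3.43% higher). At 5 h in BMDM-WT, 9 of 10 were called, 8 higher and 1 (Il7r) lower, where 33.7% of all genes were called (15.7% higher and 18.0% lower), and at 18 h 7 were called, all higher, where the background was 27.4% (13.1% higher). In BMDM-Nur77-KO, 1 member (again Il17ra) was called at 1 h (background 4.53%, with 3.23% higher), 9 at 5 h (8 higher and Il21r lower, background 32.6%, with 16.0% higher and 16.6% lower) and 8 at 18 h, all higher (background 31.8%, with 15.4% higher). With no limit on the fold, 4 members passed at 1 h in BMDM-WT (20.3% of all genes) and 5 in BMDM-Nur77-KO (12.2%). The median log2 change of the 10 genes at 5 h was 3.10 in BMDM-WT and 3.06 in BMDM-Nur77-KO, beside -0.14 and -0.12 over all genes tested. The comparisons within a genotype share their 0 h libraries. Il2ra passed the filter, a mean above 1 RPKM in at least 1 group, only through its 5 h groups. These stood at 5.08 RPKM in BMDM-WT and 4.12 RPKM in BMDM-Nur77-KO. Il12rb1 passed only through its 5 and 18 h groups. Their calls as higher at those times are therefore not independent of the filter.

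Between the genotypes, the calls lay at 0, 5 and 18 h. The limits here were 0.05 for the adjusted p and 0.58 for the size of the log2 difference. At 0 h, 3 members were called, Il13ra1 higher and Il15ra and Il12rb1 lower in BMDM-Nur77-KO (4.81% of all genes, 2.38% higher and 2.44% lower). At 1 h edgeR called 0 (background 2.86%), with 2 members at an unadjusted p under 0.05 and 0 called by DESeq2. At 5 h, 2 were called, Il4ra and Il12rb1, both lower (3.13% of all genes were called lower and 8.74% either way). At 18 h, 4 were called, all higher: Il13ra1, Il15, Il15ra and Il2ra (5.7% of all genes were called higher and 9.82% either way), and the median of the 10 log2 differences was 0.47, beside -0.01 over all genes tested. The call for Il2ra was lost without replicate 4 at 18 h, as described with that gene. With no limit on the fold, 5, 1, 3 and 7 members passed at 0, 1, 5 and 18 h, where 12.7%, 6.51%, 24.2% and 21.5% of all genes did. In all, 6 of the 10 genes were called at 1 time or more. The values of 5 members did not overlap between the genotypes at 18 h, where 21.0% of all genes did not.

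**Figure D2:**
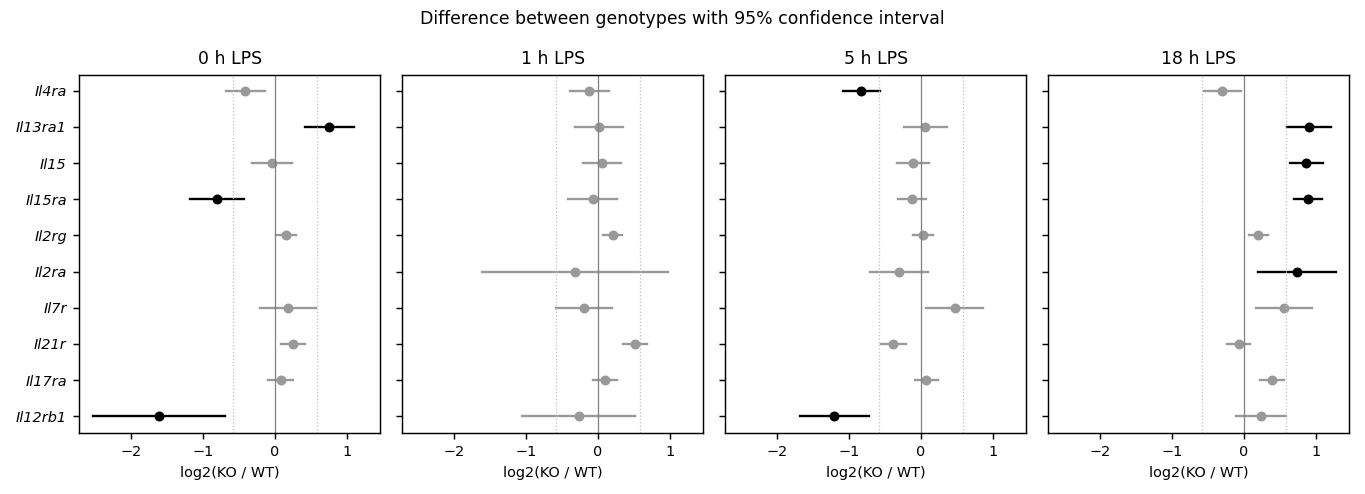
Log2 ratio of BMDM-Nur77-KO to BMDM-WT for each gene at 0, 1, 5 and 18 h of LPS, with its 95% confidence interval; black marks called differences, grey the others, and dotted lines stand at -0.58 and 0.58. Il2ra at 0 h is left out because both groups held at most 3 reads per library; the 4 black points at 18 h all lie to the right.

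The difference between the genotypes in the response to LPS was tested directly as an interaction, called at an adjusted p under 0.05. Of the 9 members with a value at 0 h, the response of 0 differed at 1 h in edgeR (0.0709% of all genes), with 4 at an unadjusted p under 0.05 and 0 called by DESeq2. At 5 h the response of 1 member, Il21r, differed, with the lower value in BMDM-Nur77-KO (3.1% of all genes, 1.37% in that direction), and at 18 h that of 3, Il15, Il15ra and Il12rb1, all with a larger rise in BMDM-Nur77-KO (9.4% of all genes, 5.36% in that direction). A comparison of 18 h with 5 h, added after the values had been seen, called 9 members in BMDM-WT (6 lower and 3 higher, background 30.1%, 14.3% lower and 15.9% higher) and 7 in BMDM-Nur77-KO (4 lower and 3 higher, background 28.6%, 14.3% each way). The change from 5 to 18 h differed between the genotypes for 6 members, and all 6 differences were positive (13.5% of all genes were called, 7.47% in that direction). These 6 were Il4ra, Il13ra1, Il15, Il15ra, Il2ra and Il12rb1.

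**Figure D3:**
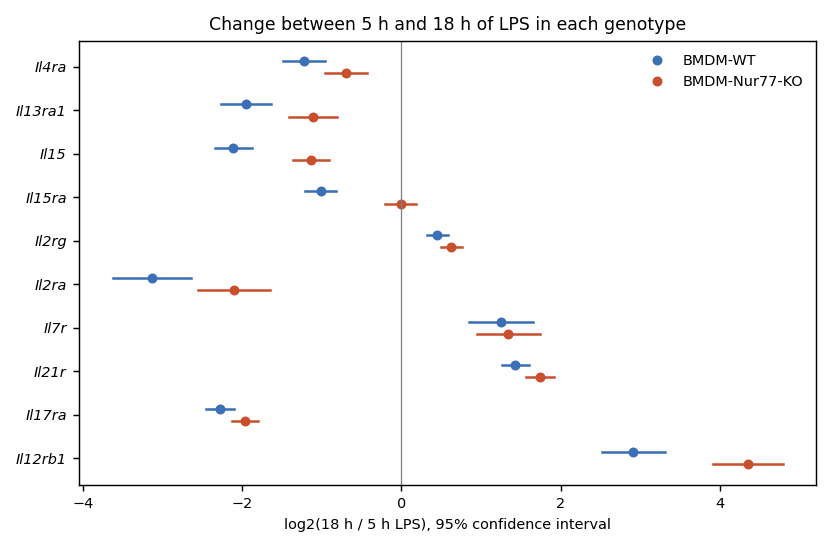
Log2 change from 5 h to 18 h of LPS with its 95% confidence interval for the 10 genes in BMDM-WT (blue) and BMDM-Nur77-KO (orange). Il15ra sits at -1.01 in BMDM-WT and at -0.01 in BMDM-Nur77-KO, and Il15 at -2.11 and -1.13.

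IL-15 and its presenting chain rose together at 5 h and then parted by genotype. Il15 held 9.77, 7.89, 8.92 and 6.82 CPM in the BMDM-WT libraries at 0 h and 371, 361, 358 and 397 CPM at 5 h, a 44.6-fold rise (log2 5.48 ± 0.137, SE, adjusted p = 6.5e-25). In BMDM-Nur77-KO it held 6.65, 8.09, 7.97 and 9.62 CPM at 0 h and 286, 322, 371 and 394 CPM at 5 h, a 42.3-fold rise (log2 5.40 ± 0.138, adjusted p = 8.8e-25). At both times the genotypes overlapped. At 18 h Il15 stood at 81.9, 87.5, 91.0 and 83.7 CPM in BMDM-WT and at 169, 156, 166 and 134 CPM in BMDM-Nur77-KO, with every knockout library above every wild-type library. That difference was 1.82-fold (log2 0.86 ± 0.112, 95% confidence interval 0.64 to 1.09, adjusted p = 5.7e-07). Il15 thus fell 4.32-fold from 5 to 18 h in BMDM-WT and 2.19-fold in BMDM-Nur77-KO, and the difference of these changes was 0.98 ± 0.156 on the log2 scale (adjusted p = 3.9e-05). Without the pair of libraries that stood apart, the genotype difference at 18 h was 0.93 (log2, adjusted p = 3.7e-09) and that of the 5 to 18 h change 0.97 (adjusted p = 2.3e-06). Against 0 h, the interaction at 18 h was 0.90 ± 0.176 (log2, adjusted p = 0.00064), and 0.97 (adjusted p = 3.8e-05) without them. The gene lies on chromosome 8 at 82331624 to 82403252 (GRCm38).

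Il15ra started from a low level that was lower without Nur77. At 0 h it held 1.98, 1.87, 2.72 and 2.47 CPM in BMDM-WT and 0.911, 1.20, 1.38 and 1.59 CPM in BMDM-Nur77-KO, from 26 to 36 and from 10 to 20 reads per library, and the groups did not overlap (22.7% of all genes did not at this time). BMDM-Nur77-KO was 1.75-fold lower (log2 -0.80 ± 0.185, adjusted p = 0.0035). At 5 h the groups overlapped, at 167, 171, 161 and 184 CPM in BMDM-WT and 174, 157, 133 and 166 CPM in BMDM-Nur77-KO (log2 -0.12 ± 0.0951, interval -0.31 to 0.08). These were rises of 76.0-fold and 122-fold over 0 h, and the interaction of 0.69 ± 0.208 (log2) missed the threshold at an adjusted p = 0.069. It passed on leaving out BMDM-Nur77-KO replicate 4 at 0 h (0.80, adjusted p = 0.044), replicate 3 of BMDM-Nur77-KO at 5 h (0.76, adjusted p = 0.027) or replicate 2 of BMDM-WT at 0 h (0.78, adjusted p = 0.046).

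At 18 h the Il15ra levels had separated in the other direction. They were 85.0, 79.3, 76.9 and 97.0 CPM in BMDM-WT and 157, 160, 143 and 167 CPM in BMDM-Nur77-KO. The lowest knockout library was above the highest wild-type library, and the ratio was 1.85 (log2 0.89 ± 0.0962, adjusted p = 2.2e-08), or 0.86 on the log2 scale (adjusted p = 2.7e-09) without the libraries that stood apart. From 5 to 18 h Il15ra fell 2.02-fold in BMDM-WT (log2 -1.01 ± 0.0966, adjusted p = 1.3e-10), whereas in BMDM-Nur77-KO the change was -0.01 ± 0.0948 (interval -0.20 to 0.19, adjusted p = 0.96). The difference of these changes was 1.01 ± 0.135 (log2, adjusted p = 2.9e-06), and 1.03 without the pair of libraries that stood apart. Against 0 h, the interaction at 18 h was 1.69 ± 0.208 (log2, adjusted p = 1.3e-06), and 1.66 (adjusted p = 2e-06) without those libraries. Leaving out replicate 2 or 3 at 18 h or replicate 4 at 5 h of BMDM-WT took the wild-type fall to -0.98, -0.97 and -0.98, just inside the limit of 1. The counts of the 9 transcripts of Il15ra in the table, which share reads, gave log2 differences of 0.84 to 0.89 between the genotypes at 18 h and of -0.82 to -0.74 at 0 h, where the adjusted p ran from 0.0034 to 0.064.

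Il15ra and Il2ra are direct neighbours on mouse chromosome 2, with 11978 bases and no other coding gene between them (Il2ra at 11642792 to 11693194, Il15ra at 11705172 to 11733985, GRCm38). Their start regions, 250 bases before to 50 after an annotated start in RefSeq (GRCm38.p6, plus strand), are shown because both genes rose steeply by 5 h. RefSeq promoters were held for 7 of the 10 members, and 6 motifs were searched on both strands. In the second promoter of Il15ra, capitals mark the AP-1 motif TGANTCA, which starts 30 bases before the start and occurs in 7.81% of 32851 promoters, and the IRF half-site AANNGAAA, which starts 26 bases after it and occurs in 23.9%. In Il2ra they mark 2 overlapping matches to the NF-kB consensus, 201 and 200 bases before the start (8.46% of promoters). The matches are descriptions of the sequence and not evidence of binding.
Il15ra, second start, chr2:11705462-11705761: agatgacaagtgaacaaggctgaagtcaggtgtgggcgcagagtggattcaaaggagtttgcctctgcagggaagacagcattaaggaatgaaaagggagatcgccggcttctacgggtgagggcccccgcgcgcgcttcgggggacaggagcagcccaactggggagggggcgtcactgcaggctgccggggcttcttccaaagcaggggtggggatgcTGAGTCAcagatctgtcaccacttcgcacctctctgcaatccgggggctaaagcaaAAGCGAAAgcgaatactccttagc
Il2ra, chr2:11642542-11642841: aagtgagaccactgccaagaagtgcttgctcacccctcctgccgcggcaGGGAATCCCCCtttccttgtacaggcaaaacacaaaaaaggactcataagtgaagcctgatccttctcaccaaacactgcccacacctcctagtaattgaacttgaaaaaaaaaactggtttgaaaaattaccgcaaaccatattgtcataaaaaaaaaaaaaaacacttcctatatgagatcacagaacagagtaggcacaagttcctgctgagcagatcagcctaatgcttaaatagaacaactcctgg

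Il2ra, the high-affinity chain for IL-2, was nearly absent at rest and appeared at 5 h. At 0 h it had 1 to 3 reads per BMDM-WT library and 0 to 2 per BMDM-Nur77-KO library, at or under the floor of 3 reads, so that no fold between the genotypes is given. At 5 h it stood at 21.6, 22.3, 23.1 and 22.6 CPM in BMDM-WT and at 25.0, 17.0, 14.6 and 16.2 CPM in BMDM-Nur77-KO, where replicate 1 was the highest of all 8. Set against the floor of 3 reads per library at 0 h, these were rises of at least 108-fold and at least 78.2-fold. At 18 h it had dropped to 2.38, 2.86, 2.35 and 2.59 CPM in BMDM-WT and to 4.12, 1.96, 4.35 and 6.38 CPM in BMDM-Nur77-KO, 22 to 78 reads per library, and the groups overlapped. The called difference at 18 h (log2 0.73 ± 0.265, adjusted p = 0.047) changed with the processing. Its adjusted p ranged from 0.004 to 0.26 over 16 alternatives and was 0.05 or higher in 11 of them. Without replicate 4 of BMDM-Nur77-KO it was 0.47 (adjusted p = 0.26), and without both libraries that stood apart 0.47 (adjusted p = 0.15). At 5 h the difference was -0.30 ± 0.198 (log2, adjusted p = 0.25), and without those libraries -0.49 (adjusted p = 0.028), still inside the fold limit. The difference between the genotypes in the change from 5 to 18 h was 1.04 ± 0.331 (log2, adjusted p = 0.034), and 0.96 (adjusted p = 0.015) without both. That call was lost in 12 of 24 alternatives.

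The common gamma chain was higher at each later time in both genotypes. Il2rg rose from 123, 115, 134 and 137 CPM at 0 h in BMDM-WT to 367, 360, 368 and 358 CPM at 5 h and 496, 529, 466 and 500 CPM at 18 h, which was 3.92-fold over rest (log2 1.97 ± 0.0691, adjusted p = 3.3e-21). In BMDM-Nur77-KO it rose from 128, 144, 141 and 152 CPM to 553, 563, 529 and 643 CPM at 18 h, 4.05-fold over rest. At 18 h every knockout library lay above every wild-type library, yet the difference was 1.15-fold (log2 0.20 ± 0.0664, adjusted p = 0.028) and within the fold limit, and without replicates that stood apart it was 0.14 (adjusted p = 0.10). Replicate 4 of BMDM-Nur77-KO held the highest value.

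**Figure D4:**
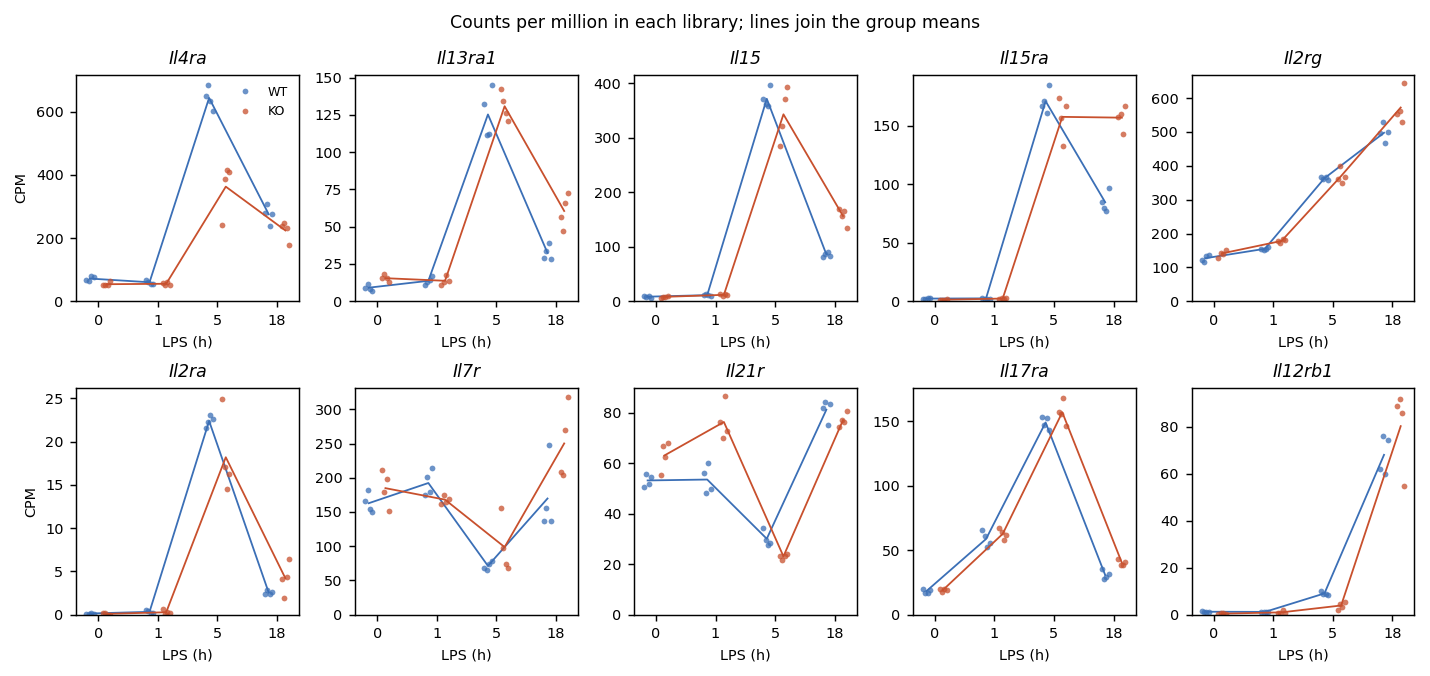
CPM of the 10 genes in each of the 32 libraries by hours of LPS, with 4 points per group for BMDM-WT (blue) and BMDM-Nur77-KO (orange) and lines joining group means; every panel has its own axis from 0. Il15, Il15ra and Il13ra1 separate by genotype at 18 h, Il4ra at 5 h, and Il7r and Il21r dip at 5 h.

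The ligand-binding chains of the IL-4 and IL-13 receptors were called between the genotypes in opposite directions, but at different times. Il4ra was called lower without Nur77 at 5 h, and Il13ra1 higher at 0 and 18 h. Il4ra held 651, 686, 636 and 604 CPM in BMDM-WT at 5 h against 241, 387, 415 and 408 CPM in BMDM-Nur77-KO. No knockout library reached the wild-type range, and replicate 1 was the lowest. BMDM-Nur77-KO was 1.77-fold lower (log2 -0.83 ± 0.128, adjusted p = 2.8e-05), and without the libraries that stood apart the difference was -0.67 (adjusted p = 2.5e-06). At rest the values were 68.5, 62.8, 80.8 and 75.3 CPM against 50.4, 51.3, 50.7 and 63.5 CPM, a difference of -0.41 ± 0.131 (log2, adjusted p = 0.035) inside the fold limit. The groups overlapped there by replicate 4 of BMDM-Nur77-KO alone. LPS raised Il4ra 8.97-fold at 5 h in BMDM-WT and 6.73-fold in BMDM-Nur77-KO, and the interaction of -0.41 ± 0.182 (log2) missed the threshold (adjusted p = 0.26).

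By 18 h the genotypes overlapped for Il4ra, at 280, 308, 239 and 275 CPM against 237, 249, 232 and 179 CPM (log2 -0.30 ± 0.128, adjusted p = 0.098). From 5 to 18 h it fell 2.34-fold in BMDM-WT and 1.62-fold in BMDM-Nur77-KO. The difference of these changes, 0.53 ± 0.180 (log2), had an adjusted p = 0.048, and in 16 of 24 alternatives the call was lost, with adjusted p from 0.0082 to 0.16. Leaving out the first of the 5 h knockout libraries, replicate 1, gave 0.38 (adjusted p = 0.074), and without both libraries that stood apart 0.47 (adjusted p = 0.0082).

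Il13ra1, the chain that pairs with Il4ra for IL-13, was higher without Nur77 at rest and at 18 h. At 0 h it stood at 9.00, 11.7, 8.54 and 7.11 CPM in BMDM-WT and at 15.3, 18.1, 15.3 and 13.1 CPM in BMDM-Nur77-KO, without overlap (1.69-fold, log2 0.76 ± 0.167, adjusted p = 0.0024). At 5 h the groups mixed, with 133, 111, 112 and 145 CPM against 142, 134, 126 and 121 CPM (log2 0.06 ± 0.144, interval -0.23 to 0.36). At 18 h they were apart again, at 29.0, 33.5, 39.1 and 28.1 CPM against 56.8, 46.9, 66.0 and 72.4 CPM (1.87-fold, log2 0.90 ± 0.150, adjusted p = 3.1e-05). Replicate 4 was the highest knockout library, and without the libraries that stood apart the difference was 0.81 (adjusted p = 6.1e-05). The rise from 0 to 5 h was 13.6-fold in BMDM-WT and 8.44-fold in BMDM-Nur77-KO, an interaction of -0.69 ± 0.220 (log2) with an adjusted p = 0.085, which became 0.037 without the libraries that stood apart (-0.73) and 0.034 without replicate 2 of BMDM-WT at 0 h. The fall from 5 to 18 h was 3.86-fold and 2.16-fold, a difference of 0.84 ± 0.207 (log2, adjusted p = 0.0055), and 0.79 (adjusted p = 0.0045) without those libraries. The gene lies on chromosome X at 36112108 to 36171262 (GRCm38).

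Il7r and Il21r, the chains for IL-7 and IL-21, were the members that went down at 5 h. Il7r held 166, 182, 154 and 150 CPM at 0 h and 67.4, 64.7, 73.7 and 78.7 CPM at 5 h in BMDM-WT, 2.29-fold lower (log2 -1.19 ± 0.194, adjusted p = 2.7e-06). In BMDM-Nur77-KO it held 211, 179, 198 and 151 CPM at 0 h and 155, 97.3, 73.6 and 68.4 CPM at 5 h. Replicate 1 at 5 h alone reached the resting range, and the change of -0.91 ± 0.191 (log2, adjusted p = 0.00011) was inside the fold limit with that library and -1.21 (adjusted p = 2.1e-07) without it. At 18 h Il7r was back at 137, 156, 248 and 137 CPM in BMDM-WT and stood at 208, 204, 269 and 319 CPM in BMDM-Nur77-KO. The groups overlapped through replicate 3 of BMDM-WT, and the difference of 0.56 ± 0.189 (log2, adjusted p = 0.032) stayed inside the fold limit. It passed the limit without that library (0.80, adjusted p = 0.0016), and without replicate 1 or 2 of BMDM-Nur77-KO (0.64 and 0.65, adjusted p = 0.023 and 0.020). Without replicate 4 of the knockout, the highest library, it was smaller (0.42, adjusted p = 0.15), and without both libraries that stood apart it was 0.42 (adjusted p = 0.035). At 5 h the difference was 0.47 ± 0.194 (log2, adjusted p = 0.074), and 0.17 (adjusted p = 0.51) without both. The gene lies on chromosome 15 at 9506159 to 9529941 (GRCm38).

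At 0 h Il21r stood at 50.7, 56.0, 51.8 and 54.4 CPM in BMDM-WT and at 55.2, 66.7, 62.4 and 68.1 CPM in BMDM-Nur77-KO. At 1 h it stood at 56.3, 48.1, 60.1 and 49.9 CPM against 76.3, 70.0, 86.7 and 72.7 CPM, with no overlap (19.4% of all genes did not overlap at 1 h), and at 5 h at 34.4, 29.7, 27.6 and 28.5 CPM against 23.3, 21.8, 23.2 and 24.0 CPM, with the order reversed and again no overlap (18.8% of all genes). The differences were 0.51 ± 0.0809 (log2, adjusted p = 6.2e-05) at 1 h and -0.38 ± 0.0877 (log2, adjusted p = 0.0025) at 5 h, both inside the fold limit, and the latter was -0.39 (adjusted p = 0.0047) without the libraries that stood apart. From 0 to 5 h Il21r fell 1.77-fold in BMDM-WT and 2.74-fold in BMDM-Nur77-KO, and the interaction was -0.63 ± 0.119 (log2, adjusted p = 0.002). It was -0.63 (adjusted p = 0.0015) without the libraries that stood apart. At 18 h the groups overlapped at 82.0, 84.4, 75.2 and 83.4 CPM against 74.3, 77.0, 76.4 and 80.9 CPM.

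Il4ra and Il21r are also neighbours, on chromosome 7 at 125552271 to 125579474 and at 125603252 to 125634397, with 23778 bases and no other coding gene between them (GRCm38). Their start regions (RefSeq, GRCm38.p6, plus strand) are shown because the neighbours moved in opposite directions at 5 h, and because Il21r alone of the 7 members with a promoter held the NBRE, AAAGGTCA, the motif that Nur77 is known to bind as a monomer. It occurs in 1.51% of promoters and lies on the reverse strand, so that the capitals in Il21r spell its reverse complement, 127 bases before the start. The annotated start used for Il21r lies inside the span given for the gene, and so does the motif. The capitals in Il4ra mark a match to the NF-kB consensus on the reverse strand, 20 bases after the start.
Il4ra, chr7:125552021-125552320: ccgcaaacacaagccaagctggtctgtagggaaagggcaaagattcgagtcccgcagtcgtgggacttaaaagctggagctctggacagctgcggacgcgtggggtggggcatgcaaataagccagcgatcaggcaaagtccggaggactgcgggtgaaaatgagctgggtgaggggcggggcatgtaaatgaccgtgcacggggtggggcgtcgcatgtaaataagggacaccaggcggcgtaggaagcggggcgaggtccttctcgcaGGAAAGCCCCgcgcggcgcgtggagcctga
Il21r, chr7:125603179-125603478: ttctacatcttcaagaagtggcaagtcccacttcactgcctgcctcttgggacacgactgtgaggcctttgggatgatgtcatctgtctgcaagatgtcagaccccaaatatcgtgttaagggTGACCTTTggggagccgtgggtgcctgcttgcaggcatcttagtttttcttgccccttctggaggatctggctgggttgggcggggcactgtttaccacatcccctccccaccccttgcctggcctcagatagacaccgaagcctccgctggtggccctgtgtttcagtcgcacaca

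In the other promoters held, Il7r carried the STAT motif GAS, TTCNNNGAA, 142 bases before the start (8.3% of promoters), and Il2rg and the first promoter of Il15ra each carried an IRF half-site. The core of the interferon-stimulated response element, 2 copies of GAAA with 2 bases between them, found in 3.44% of promoters, was in none of the windows of the 7 genes, and Il13ra1 held none of the 6 motifs.

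Il17ra, the shared IL-17 receptor chain, was the member called at 1 h in both genotypes. It went from 20.1, 16.5, 17.0 and 19.2 CPM at 0 h to 65.9, 60.9, 52.2 and 55.4 CPM at 1 h in BMDM-WT, a 3.23-fold rise (log2 1.69 ± 0.0847, adjusted p = 1.4e-16), and from 19.9, 17.4, 20.2 and 19.2 CPM to 67.1, 63.6, 57.7 and 61.9 CPM in BMDM-Nur77-KO, a 3.27-fold rise. The interaction at 1 h was 0.02 ± 0.118 on the log2 scale, with a 95% confidence interval of -0.22 to 0.26. At 5 h the rise was 8.20-fold and 8.19-fold. At 18 h it had fallen to 35.0, 27.7, 28.9 and 31.1 CPM in BMDM-WT and to 43.4, 38.2, 38.4 and 40.8 CPM in BMDM-Nur77-KO. These values were still above every 0 h library, and the change from 0 h was called in BMDM-Nur77-KO (log2 1.07, adjusted p = 1.6e-12). The genotypes did not overlap at 18 h, and the 1.31-fold difference (log2 0.39 ± 0.0833, adjusted p = 0.00078) was inside the fold limit. It was 0.38 (adjusted p = 0.0014) without the libraries that stood apart. The gene lies on chromosome 6 at 120463181 to 120483731 (GRCm38).

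Il12rb1, the chain shared by the IL-12 and IL-23 receptors, was the only one of the 10 that was higher at 18 h than at 5 h by more than 4-fold in both genotypes. At 0 h it had 16 to 20 reads per BMDM-WT library and 2 to 8 per BMDM-Nur77-KO library, 1.37, 1.04, 1.21 and 1.16 CPM against 0.364, 0.506, 0.460 and 0.159 CPM, and was 3.05-fold lower in BMDM-Nur77-KO (log2 -1.61 ± 0.448, adjusted p = 0.016). At 5 h it held 10.0, 8.69, 8.88 and 8.39 CPM against 1.96, 4.70, 3.26 and 5.50 CPM, with no overlap and 2.30-fold lower (log2 -1.20 ± 0.236, adjusted p = 0.00054), or -1.003 on the log2 scale (adjusted p = 0.00026) without the libraries that stood apart. At 18 h the order had turned in 3 of 4 libraries, with 62.0, 76.1, 59.7 and 74.4 CPM in BMDM-WT and 88.8, 92.0, 85.7 and 54.6 CPM in BMDM-Nur77-KO, where replicate 4 was the lowest of all 8.

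The Il12rb1 difference at 18 h was 0.24 ± 0.167 (log2, adjusted p = 0.34), and without the libraries that stood apart it was 0.38 (adjusted p = 0.011), inside the fold limit either way. From 5 to 18 h Il12rb1 rose 7.55-fold in BMDM-WT and 20.5-fold in BMDM-Nur77-KO, a difference of 1.44 ± 0.289 (log2, adjusted p = 0.00068), and against 0 h the interaction at 18 h was 1.85 ± 0.478 (log2, adjusted p = 0.01). Without those libraries the values were 1.39 (adjusted p = 1.8e-05) and 1.99 (adjusted p = 0.00039). The 0 h levels of both genotypes rest on few reads. The gene lies on chromosome 8 at 70808360 to 70823542 (GRCm38).

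Apart from Il15, which is counted among the members, the ligands of these receptors were mostly at the floor in the macrophages themselves. Of 12 ligand genes, 4 were tested (Il7, Il12a, Il12b and Il23a), and Il2, Il4, Il9, Il13, Il17a and Il17f never passed 0.153 CPM, Il21 never 0.473 CPM and Tslp never 0.982 CPM. At 18 h, 3 of the 4 were called higher in BMDM-Nur77-KO, where 5.7% of all genes tested were called higher. Il12a, Il12b and Il23a were at or under the floor at 0 h in both genotypes. They passed the filter only through groups with LPS, so their calls are not independent of it. Il12b, the subunit shared by IL-12 and IL-23, was 2.93-fold higher at 108.6 against 37.0 CPM (log2 1.55 ± 0.106, adjusted p = 1.7e-12). Il12a, the other subunit of IL-12, averaged 3.64 CPM in BMDM-Nur77-KO and was at least 13.5-fold higher than the floor of 3 reads in BMDM-WT, and Il7 was 1.93-fold higher (adjusted p = 0.049). Il23a, the IL-23 subunit, was lower at 1 h (log2 -0.80, adjusted p = 0.0052) and higher at 5 h (log2 2.01, adjusted p = 0.0001), where it averaged 2.38 against 0.582 CPM. Il12a was also higher at 5 h (log2 1.39, adjusted p = 4.8e-05).

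Of 10 partner chains that complete these receptors, 3 were tested. At 18 h, 2 of the 3 were called higher in BMDM-Nur77-KO, where 5.7% of all genes tested were called higher. Il23r was at 0 CPM at 0 h in both genotypes and passed the filter only through groups with LPS. Its call is therefore not independent of the filter. Il12rb2 and Il23r, which pair with Il12rb1 to form the IL-12 and IL-23 receptors, were both called at 18 h with more in BMDM-Nur77-KO, at 7.88 against 4.61 CPM (log2 0.77 ± 0.158, adjusted p = 0.0005) and at 17.1 against 8.45 CPM (log2 1.02 ± 0.161, adjusted p = 5.9e-05). Crlf2, the TSLP receptor chain, ranged from 24.4 to 60.2 CPM, with log2 differences of -0.27 to 0.24 between the genotypes (adjusted p = 0.29 to 0.64). Il2rb, the beta chain needed for signalling by IL-2 and IL-15, never passed 0.957 CPM, so that the beta chain of the IL-15 receptor was near the floor in libraries where Il15, Il15ra and Il2rg were among the more abundant members.

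All 15 signalling genes were tested, and LPS raised 12 of them at 5 h in BMDM-WT and 11 in BMDM-Nur77-KO. Over all genes tested, 15.7% and 16.0% were called higher in these comparisons. At 0 h, Stat4 (log2 -0.60, adjusted p = 0.019) and Socs3 (log2 -1.54, adjusted p = 0.024), the latter at 0.363 against 1.11 CPM, were lower in BMDM-Nur77-KO. Stat4, the STAT factor of the IL-12 receptor, was also lower at 1 h (log2 -0.87) and at 5 h (log2 -0.76). At 18 h, where 5.7% of all genes tested were called higher, 4 of the 15 were higher. These were Jak2, a kinase of the IL-12 and IL-23 receptors (1.80-fold, log2 0.85 ± 0.130, adjusted p = 8.9e-06), Stat3, used by IL-21 and IL-23 (1.60-fold, adjusted p = 2.4e-07), Stat5a, used by IL-2, IL-7 and IL-15 (1.57-fold, adjusted p = 0.00016), and the feedback inhibitor Socs1 (1.93-fold, adjusted p = 0.027). Jak3, the kinase bound by the common gamma chain, and Stat6, the factor of the IL-4 receptor, had log2 differences of -0.53 to -0.07 (adjusted p = 0.078 to 0.94) and of -0.11 to 0.05 (adjusted p = 0.41 to 0.90), and no call was made for either. The response to LPS at 18 h differed between the genotypes for 5 of the 15, each with the higher value in BMDM-Nur77-KO. Over all genes tested, it differed for 9.4%, with 5.36% in that direction.

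Among 12 genes known to respond to IL-4 in macrophages, 11 were tested and no common direction was seen. At 0 h 4 were higher (Fn1 5.58-fold, Ear2 2.38-fold, Ccl22 1.83-fold and Chil3 1.54-fold) and 2 lower (Tgm2 1.82-fold and Clec10a 1.69-fold) in BMDM-Nur77-KO. Of all genes tested, 2.38% were called higher and 2.44% lower at that time. At 1 h, Fn1 and Ear2 were higher and Tgm2 lower (1.51% of all genes higher and 1.36% lower). At 5 h, 2 were higher (Fn1 and Ear2) and 2 lower (Tgm2 and Clec10a), while Il4ra was 1.77-fold lower. The shares over all genes there were 5.61% higher and 3.13% lower. At 18 h, 2 were higher, Ccl22 at 58.3 against 11.4 CPM (5.14-fold, adjusted p = 1.9e-12) and Fn1 at 8.49 against 2.41 CPM (3.51-fold, adjusted p = 1.7e-09). Over all genes tested, 5.7% were called higher at 18 h. Ccl22 encodes a chemokine that dendritic cells also make, and the dendritic cell markers Ccr7 (4.29 against 1.42 CPM), Clec9a (12.1 against 3.52 CPM), Xcr1 (4.37 against 2.40 CPM) and Itgax (102 against 35.0 CPM) were also called at 18 h, each higher without Nur77. Among the macrophage markers at 18 h, Mertk was higher and Csf1r and Itgam were lower (log2 0.69, -0.62 and -0.64). The part of these markers in the differences of the 10 genes was not tested.

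Across the 32 libraries, the pattern of Il15 (log2 CPM) lay closest to that of Parp9 and Atp10a (Pearson r = 0.995 for both), and that of Il15ra to Cmpk2 and Apobec3 (0.996 for both). The nearest to Il4ra were Dhx58 (0.986) and Slfn5os (0.985), to Il12rb1 Ly6e and Il18bp (0.979 for both), to Il2rg Ifngr2 and P4ha1 (0.990 for both), to Il13ra1 Cers6 (0.988) and Armc8 (0.985), and to Il2ra Katna1 (0.985) and Otud5 (0.983). Il17ra lay nearest to Cdkn1a and Rab11fip1 (0.984 for both), while the nearest neighbours of Il21r (Plin3 and Inpp4a, 0.945 for both) and Il7r (Dnajb9, 0.948, and Tmem65, 0.940) were less close. Among the members, Il15 lay nearest to Il2ra (0.976) and Il15ra (0.975), Il21r followed Il7r (0.750), and Il17ra ran against Il21r (-0.719). These values describe likeness over libraries that share the same time course and groups.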

How the data were processed

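RNA was measured in 32 BMDM libraries, 4 for each genotype and time, grouped by the submitters' labels. Strand-specific mRNA libraries were sequenced, and the authors aligned the reads with HISAT2 2.1.0 (CASAVA 1.8.2 is also named in the submitters' processing notes), filtered them by mapping quality and counted tags per RefSeq transcript with HOMER without adjustment. Whether strand was used in counting is not given in the sources used here. The deposited values are estimated counts in steps of 0.5, of which 28.647% were not whole, and they were rounded to whole numbers.

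The table held 42361 transcripts on GRCm38 (mm10). RefSeq named 42203 of them and GENCODE 65, and the 93 unnamed transcripts, with 0.233% to 1.37% of tags, were left out. The transcript with the highest mean count stood for its gene, which left 25067 genes. Genes with a mean above 1 RPKM in at least 1 group were tested (11279). RPKM was computed from transcript lengths, and for Il4ra the length was that of its other transcript (5256 bases).

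edgeR 4.0.16 (R 4.3.3, limma 3.58.1) was fitted with TMM factors, 1 mean per group and quasi-likelihood tests, two-sided, with Benjamini-Hochberg adjustment over all genes tested. CPM values use the same library sizes. Standard errors (SE) and 95% intervals come from that fit. A group with at most 3 reads in every library was treated as at the floor, against which folds are lower bounds. Floors cover counting error only. DESeq2 1.42.0, its size factors, other filters, other fold limits, every transcript row, only the libraries compared, a replicate block and leaving out each library in turn were the alternatives, and leaving out both libraries that stood apart was added after the data were seen. The procedures were tested on simulated data. Members and gene lists were chosen with earlier results of these data known. All 10 members were named, and all genes of the lists were counted, although the values of 1 listed gene are not reported here. Likeness of pattern was Pearson's r of log2 CPM (prior count 2) over 32 libraries, and the 2 nearest genes were named. Promoters came from RefSeq. Same-numbered replicates did not deviate together (48 pairs, r from -0.699 to 0.46, 11 over 0.1). Figures were drawn with matplotlib 3.10.9.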

Additional observations from a re-analysis of the deposited data

Results flagged for a closer look

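In groups of 4 libraries, 1 value lay far from the other 3 in 4 of 78 groups examined, where chance flags about 1 in 20. These were Il4ra in replicate 4 of BMDM-Nur77-KO at 0 h (63.5 CPM, above the others) and in replicate 1 at 5 h (241 CPM, below the others), Il15ra in replicate 1 of BMDM-WT at 1 h (3.06 CPM, above the others) and Il12rb1 in replicate 4 of BMDM-Nur77-KO at 18 h (54.6 CPM, below the others). The low values of Il4ra at 5 h and of Il12rb1 at 18 h fell in the pair of libraries that stood apart over all genes.

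The response to LPS differed between the genotypes in 10 tests of the interaction on the log2 scale. Against 0 h these were Il21r at 5 h (-0.63), and Il15 (0.90), Il15ra (1.69) and Il12rb1 (1.85) at 18 h. For the change from 5 to 18 h they were Il4ra (0.53), Il13ra1 (0.84), Il15 (0.98), Il15ra (1.01), Il2ra (1.04) and Il12rb1 (1.44). Those of Il4ra and Il2ra were lost in 16 and 12 of 24 alternatives.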

How the results depend on the processing

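Of 70 called results on members, 66 kept their call and direction under the other tools, filters and sets of libraries that were run, and 9 of 86 that were not called were called under at least 1 of these. The fold limits, which were varied for the counts only, are not part of those numbers. The cause was not tested in any case. With no limit on the fold, the genotype comparison called 5 members at 0 h, 1 member at 1 h and 7 members at 18 h, and with a log2 limit of 1 it called 1 member at 0 h, 1 at 5 h and, in edgeR, 0 at 18 h, where 8 members had an unadjusted p below 0.05. In the LPS response at 1 h, no limit gave 4 calls in BMDM-WT and 5 in BMDM-Nur77-KO, and DESeq2 gave 2 in BMDM-Nur77-KO. The interaction at 5 h had 2 calls in DESeq2 and 2 without both libraries that stood apart. Leaving out 1 library at a time gave 1 to 2 calls at 1 h in BMDM-Nur77-KO and 1 to 3 for the interaction at 5 h. The call of Il12rb1 at 1 h was gained in DESeq2 (1.31, adjusted p = 0.022) and when replicate 4 of that group was left out (1.50, adjusted p = 0.042). Small differences turned in direction, all log2 and none called: the Il17ra interaction at 1 h (-0.0095 in DESeq2, -0.0080 with its size factors, -0.0055 with only the libraries compared) and at 5 h (0.00047 with no filter), Il15ra from 5 to 18 h in BMDM-Nur77-KO (0.0011 with only the libraries compared), and without both libraries that stood apart the same Il15ra change (0.014), the Il7r interaction at 5 h (-0.015) and the Il2rg interaction at 18 h (-0.013). Leaving out 1 library at a time, the genotype difference ranged from -0.131 to 0.0412 for Il15 at 0 h, from -0.120 to 0.120 for Il13ra1, from -0.0121 to 0.157 for Il15 and from -0.145 to 0.0597 for Il15ra at 1 h, and from -0.0146 to 0.0507 for Il2rg at 5 h. The LPS response ranged from -0.00937 to 0.223 for Il15ra and from -0.0498 to 0.0598 for Il21r at 1 h in BMDM-WT, from -0.182 to 0.152 for Il7r at 18 h in BMDM-WT, and from -0.0217 to 0.124 for Il4ra at 1 h in BMDM-Nur77-KO. The interaction ranged from -0.0354 to 0.0786 for Il17ra at 1 h, from -0.156 to 0.0160 for Il15, from -0.0541 to 0.0454 for Il17ra and from -0.0155 to 0.427 for Il7r at 5 h, and from -0.0131 to 0.250 for Il13ra1 and from -0.0127 to 0.0945 for Il2rg at 18 h. From 5 to 18 h, Il15ra ranged from -0.0797 to 0.0444 in BMDM-Nur77-KO and the Il7r interaction from -0.0485 to 0.394.

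The replicate numbers are shared by label only, and in 10 of the 48 same-numbered pairs over all comparisons the best match had the same number. With the number as a replicate block, the members called between the genotypes were 3, 0, 2 and 3 at 0, 1, 5 and 18 h, with Il2ra lost at 18 h (0.72, adjusted p = 0.056). For the 5 to 18 h interaction Il17ra was gained (0.32, adjusted p = 0.041) and Il4ra lost (0.53, adjusted p = 0.066), and the block changed no other call. Few reads limit Il2ra at 0 and 1 h and Il12rb1 at 0 h.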
